A study of Mus musculus with 15 samples.

Results

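The neurotrophins, the related ligand glial cell line-derived neurotrophic factor and their receptors were followed in cultured mouse cerebellar cells with and without IL-12. The members were chosen by gene symbol, by a rule that used no measured value but with earlier results of these data known. They were the ligands *Bdnf*, *Ntf3*, *Ntf5* and *Gdnf* and the receptors *Ntrk2*, *Ntrk3*, *Ngfr* and *Sort1*, 8 of the 35142 genes that the transcripts were summed to. RNA-seq was made from 15 cultures of dissociated cerebellum of neonatal C57BL/6 wild-type pups at day 14 in vitro. They were 5 unstimulated cultures, 5 with 30 ng/ml and 5 with 100 ng/ml, and the IL-12 was the recombinant mouse heterodimer IL-12p70, given for 18 h. The treated groups were compared with the same unstimulated cultures, so their comparisons share these controls. The labels number the cultures within a group but do not tie them to separate animals or preparations, so p-values measure the spread between these cultures, which may be technical. Each culture held 25746096 to 38435850 estimated reads. The labels call the cells neurons, yet the cultures were mixed: 11 astrocyte markers summed to a mean of 5212 TPM (reads scaled for transcript length and depth) in unstimulated cultures, 14 microglial markers to 10868 and 12 markers of the oligodendrocyte lineage to 8166, against 345 for 20 neuronal markers. Of these neuronal markers 18 passed the filter on low counts, *Calb1* among them, and the Purkinje cell marker *Pcp2* did not.

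Neurotrophins are secreted as proneurotrophins and cleaved to mature ligands that support the survival, growth and synapses of neurons. Mature BDNF and neurotrophin-4 (the product of *Ntf5*) bind the receptor tyrosine kinase TrkB (*Ntrk2*), and neurotrophin-3 (*Ntf3*) binds TrkC (*Ntrk3*). The p75 receptor (*Ngfr*) with sortilin (*Sort1*) binds the uncleaved proforms, and sortilin also sorts proteins, BDNF among them, inside the cell. GDNF belongs to another ligand family and signals through a GFR-alpha coreceptor and the kinase RET. TrkB and TrkC are each made in a full-length form with the kinase and in truncated forms without it, and astrocytes are known for a truncated TrkB called T1.

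Of the 8 genes, *Sort1* fell with IL-12 at 100 ng/ml, *Gdnf* rose in the mean of both concentrations, and no other member passed the test in any comparison. *Sort1* was 16.1% lower at 100 ng/ml than without IL-12 (log2 fold change -0.25, SE 0.04, adjusted p = 0.00138). *Gdnf* was 1.38-fold higher in the mean of both concentrations (log2 fold change 0.46, SE 0.14, adjusted p = 0.0438). Both were measured in the same cultures, with 5499 to 10049 reads per culture for *Sort1* and only 32 to 80 for *Gdnf*. Counts of the 3 groups entered 1 model in edgeR and were compared by its quasi-likelihood test, and p-values were adjusted over the 15360 genes with at least 1 CPM (counts scaled to the library total) in at least 2 cultures. Calls were made at an adjusted p under 0.05. Of the members, 7 passed this filter and *Ntf5* did not.

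At 100 ng/ml, 1 of 7 tested members was called, against 9.77% of all genes tested. At 30 ng/ml edgeR called 0 of 7, against 7.87% of all genes; 3 members (*Gdnf*, *Ntrk3* and *Sort1*) had an unadjusted p under 0.05, as did 22.7% of all genes, and DESeq2 called 0. Between the concentrations edgeR called 0 of 7, against 0.579% of all genes, with *Ntrk2* and *Sort1* at an unadjusted p under 0.05 (12.7% of all genes), and DESeq2 also called 0. In the mean of both concentrations 2 of 7 were called, against 11.9% of all genes. With 7 genes these counts are too small to set the family apart from the background.

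**Figure D1:**
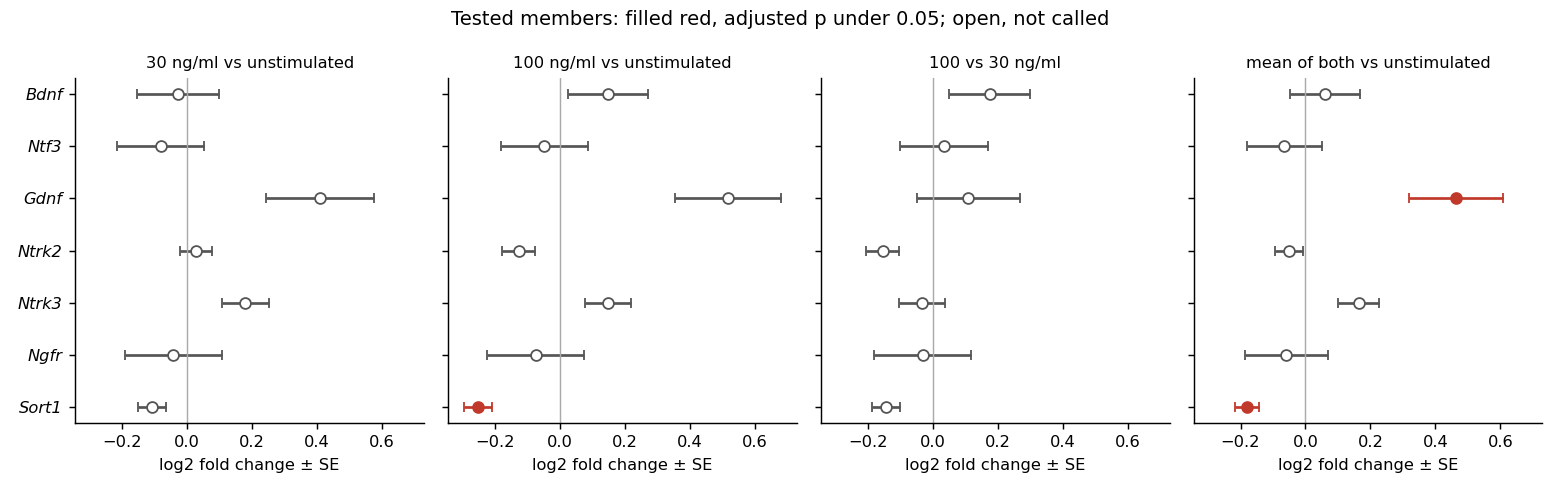
Log2 fold change with its standard error (x axis) of the 7 tested members (y axis) in 4 comparisons, from the edgeR fit of all 15 cultures; filled red points passed an adjusted p of 0.05. *Sort1* lies at -0.25 at 100 ng/ml and *Gdnf* at 0.46 in the mean of both concentrations, and the other members are open points in every panel.

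The members differed widely in level. Per transcript length, in unstimulated cultures (mean ± SD of the TPM, n = 5), *Ntrk2* was at 382 ± 21.98, *Sort1* at 59.2 ± 3.68, *Ntrk3* at 9.08 ± 1.61, *Ntf3* at 3.18 ± 0.468, *Bdnf* at 2.11 ± 0.392, *Ngfr* at 0.878 ± 0.146, *Gdnf* at 0.664 ± 0.129 and *Ntf5* at 0.280 ± 0.0767. Receptors thus stood above ligands, apart from *Ngfr*. Neighbours in this order did not overlap over the 5 unstimulated cultures, except *Ngfr*, at 0.699 to 1.06 TPM, and *Gdnf*, at 0.476 to 0.798 TPM. With IL-12 the mean TPM of *Gdnf* lay above that of *Ngfr*, at 0.903 against 0.867 with 30 ng/ml and 0.947 against 0.837 with 100 ng/ml, but the cultures of the 2 genes overlapped in each group.

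Among the ligands, *Gdnf* was the member with the largest fold change. The gene lies on chromosome 15 (GRCm39 chr15:7840327-7867060, plus strand), and all its reads were assigned to its only listed transcript. In the unstimulated cultures *Gdnf* was at 1.75, 1.86, 1.50, 1.15 and 1.49 CPM. With 30 ng/ml it was at 2.51, 1.49, 2.32, 1.86 and 2.16 CPM. With 100 ng/ml it was at 1.72, 2.39, 2.27, 2.46 and 2.33 CPM. Thus 3 of 5 cultures at 30 ng/ml and 4 of 5 at 100 ng/ml lay above every unstimulated culture, but the groups overlapped. At the higher concentration the log2 fold change was 0.52 (SE 0.16, adjusted p = 0.0523), and at the lower it was 0.41 (SE 0.16, adjusted p = 0.141). The call was not stable: over 23 alternatives the adjusted p of the mean of both ranged from 0.0217 to 0.121 and was under 0.05 in 10. It was lost without unstimulated replicate 1, 3, 4 or 5, without replicate 1, 3 or 5 at 30 ng/ml or without replicate 3, 4 or 5 at 100 ng/ml, where the log2 fold change stayed between 0.37 and 0.52.

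*Bdnf*, on chromosome 2 (chr2:109505045-109557475, plus strand), encodes the main TrkB ligand and had 118 to 247 reads per culture. It was at 6.45, 4.23, 4.78, 6.20 and 5.01 CPM without IL-12, at 4.75, 5.04, 5.02, 5.74 and 5.73 CPM with 30 ng/ml and at 5.17, 6.46, 7.26, 5.82 and 5.04 CPM with 100 ng/ml. The 3 groups overlapped, and 2 of 5 cultures at 100 ng/ml lay above all unstimulated ones. Against these the log2 fold change of *Bdnf* was 0.15 (SE 0.12, adjusted p = 0.491) at 100 ng/ml and -0.03 (SE 0.13, adjusted p = 0.928) at 30 ng/ml. Mouse *Bdnf* has several promoters, each giving a transcript with its own 5′ exon joined to the same coding exon. Most reads were assigned to the transcript *Bdnf-205*, with a share of 90.1 ± 7.46% of the gene's TPM without IL-12, 93.9 ± 4.82% with 30 ng/ml and 90.0 ± 7.64% with 100 ng/ml (SD, n = 5). By culture it went down to 78.7%. These are estimates that divide reads shared by the forms. Some annotated forms, *Bdnf-215* and *Bdnf-216* with nearby starts among them, were not quantified, so promoter use cannot be read from this share. The share of *Bdnf-205* did not pass an exact permutation test over cultures in any of the 3 pairs of groups (two-sided, smallest p = 0.365, adjusted p = 0.911 over 9 comparisons of shares). The smallest p that 5 against 5 cultures allow is 0.00794.

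*Ntf3*, the TrkC ligand on chromosome 6 (chr6:126078375-126143873, minus strand), had 55 to 91 reads per culture. It lay between 2.10 and 3.08 CPM without IL-12 (median 2.33), between 1.92 and 2.51 with 30 ng/ml (median 2.41) and between 1.98 and 2.95 with 100 ng/ml (median 2.25). Its log2 fold change was -0.05 (SE 0.13, adjusted p = 0.864) at 100 ng/ml and -0.08 (SE 0.14, adjusted p = 0.775) at 30 ng/ml. *Ntf5* (chr7:45063082-45066604, plus strand), the TrkB ligand neurotrophin-4, had 6 to 12 reads per culture and no culture above 0.420 CPM. Its group means were 0.302, 0.300 and 0.295 CPM at 0, 30 and 100 ng/ml, and the exact permutation p-values were 0.889 at 100 and 0.984 at 30 ng/ml against unstimulated (5 against 5 cultures, two-sided). It overlaps *Ruvbl2* on the opposite strand, which was at a mean of 72.3 CPM. The libraries were stranded, but whether the program that assigned the reads used the strand is not given. If it did not, some of these few reads could belong to *Ruvbl2*.

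**Figure D2:**
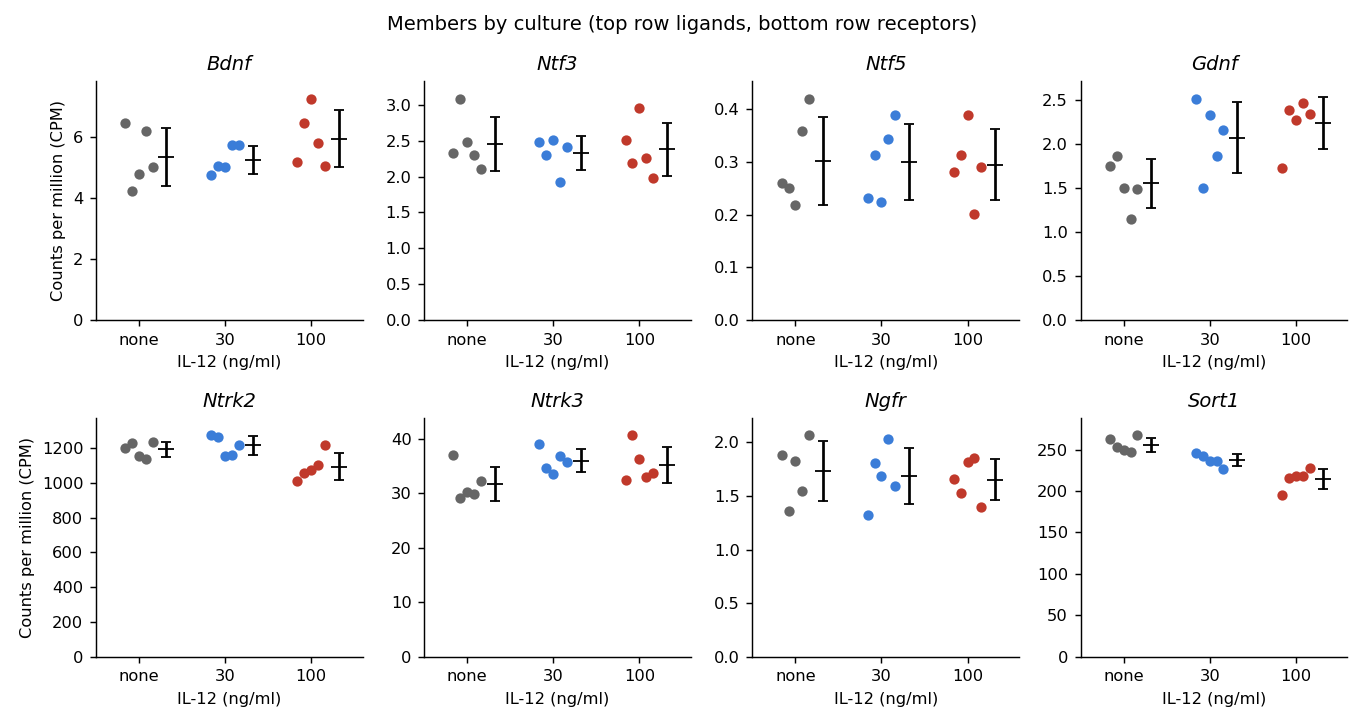
CPM (y axis, from 0, on a scale of its own per panel) of each member in every culture (points) by IL-12 concentration (x axis: none, 30 or 100 ng/ml), with the mean and SD of 5 cultures beside the points. *Sort1* has means of 256, 237 and 215 CPM at 0, 30 and 100 ng/ml, with both IL-12 groups wholly below the unstimulated cultures, *Gdnf* is higher in most IL-12 cultures, and the groups overlap in the other panels.

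Among the receptors, *Sort1* gave the clearest change. It encodes sortilin, a sorting receptor that also serves as the coreceptor of p75 for proneurotrophins, and lies on chromosome 3 (chr3:108191285-108268842, plus strand). The unstimulated cultures were at 263, 253, 250.1, 247 and 267 CPM. With 30 ng/ml they were at 246, 242, 237, 236 and 227 CPM, and with 100 ng/ml at 195, 215, 218, 218 and 228 CPM. All 5 cultures of each IL-12 concentration lay below all 5 unstimulated cultures, a pattern that 2.84% of the genes tested showed in this direction at 100 ng/ml and 3.46% at 30 ng/ml. The lower concentration gave a log2 fold change of -0.11 (SE 0.04, adjusted p = 0.136), which did not pass, and the difference between the concentrations, -0.14 (SE 0.04, adjusted p = 0.173), did not pass either. The fall at 100 ng/ml passed under all 24 alternatives, with adjusted p-values from 6.98e-07 to 0.0116 and log2 fold changes from -0.28 to -0.22, and the mean of both concentrations (log2 fold change -0.18, SE 0.04, adjusted p = 0.00475) passed under all 23. In bulk RNA, fewer cells of a type and less RNA per cell cannot be told apart. The summed TPM of the 12 oligodendrocyte lineage markers was ordered in the same way, with means of 8166, 7435 and 6564 and ranges of 6642 to 9858, 6670 to 8194 and 5940 to 7212 at 0, 30 and 100 ng/ml, and 3 of the 12, *Mag* and *Mbp* among them, were called lower at 100 ng/ml. Over both concentrations together, 4 of the 12 were called lower and 1, *Opalin*, higher. Of all genes, 3.93% were called lower at 100 ng/ml, and 5.22% lower and 6.71% higher over both together. The part of these cells in the fall of *Sort1* was not tested.

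*Sort1* reads were mostly assigned to a pair of coding transcripts that differ by an exon of 99 bases in frame. It is present in *Sort1-203* and absent from *Sort1-201*. The exon is shown because it is all that separates the coding sequences of the measured forms (GRCm39 chr3:108262788-108262886, plus strand; capitals mark the added exon and lower case the 15 coding bases on either side, from GENCODE release M39).
Sort1-203: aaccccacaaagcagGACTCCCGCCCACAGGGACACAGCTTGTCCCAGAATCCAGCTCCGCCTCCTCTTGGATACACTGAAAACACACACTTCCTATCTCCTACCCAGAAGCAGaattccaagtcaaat
*Sort1-201* took 65.5 ± 4.18% of the gene's TPM without IL-12, 66.8 ± 2.19% with 30 ng/ml and 65.4 ± 3.09% with 100 ng/ml, and *Sort1-203* most of the rest. Other annotated coding forms, *Sort1-215* and *Sort1-217* among them, were not quantified. The mean level of *Sort1-201* was 38.7, 37.5 and 32.2 TPM at 0, 30 and 100 ng/ml, and that of *Sort1-203* was 20.01, 18.0 and 16.5 TPM. In a fit of 41466 transcripts the higher concentration gave a log2 fold change of -0.26 (SE 0.06, adjusted p = 0.0601) for *Sort1-201* and -0.27 (SE 0.10, adjusted p = 0.331) for *Sort1-203*, so neither form alone was called by edgeR. DESeq2 called *Sort1-201* (adjusted p = 0.000739).

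*Ntrk2*, on chromosome 13 (chr13:58954176-59281784, plus strand), encodes TrkB and had by far the highest level of the members, with 27012 to 46054 reads per culture. It was at 1203, 1229, 1157, 1139 and 1236 CPM without IL-12, at 1273, 1267, 1156, 1161 and 1221 CPM with 30 ng/ml, and at 1009, 1057, 1076, 1103 and 1219 CPM with 100 ng/ml. At 100 ng/ml 4 of 5 cultures lay below every other culture of the series, and replicate 5 lay among the unstimulated ones. The log2 fold change was -0.13 (SE 0.05, adjusted p = 0.121) against unstimulated and -0.15 (SE 0.05, adjusted p = 0.213) against 30 ng/ml, and at 30 ng/ml against unstimulated it was 0.03 (SE 0.05, adjusted p = 0.807). Without replicate 5 of the 100 ng/ml group the first of these passed, at -0.17 with an adjusted p of 0.0358. The 11 astrocyte markers, whose sum is led by *Gfap*, had a summed TPM of 4806 to 5460, 5792 to 6609 and 5687 to 6123 at 0, 30 and 100 ng/ml. Single markers took different courses: *Aqp4* was at a mean of 1195, 1342 and 1178 CPM and *Sox9* at 158, 174 and 142 CPM, in the order of *Ntrk2*, while *Aldoc* and *Fabp7* were called higher and *Gja1* lower at 100 ng/ml against unstimulated, and *Sox9* was called lower at 100 against 30 ng/ml. The part of astrocytes in the values of *Ntrk2* was not tested.

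Forms of TrkB differ in where the coding sequences end, and this sets the quantified transcripts apart. The transcripts share 1393 coding bases and then part, and the last 30 shared bases are shown in lower case, followed in capitals by what is particular to each form: the whole T1 end with its stop codon (38 bases, GRCm39 chr13:59079837-59079874), the whole end of the truncated form *Ntrk2-205* (86 bases, chr13:59026153-59026238) and the opening 60 of 1073 bases of the full-length form, which go on to the kinase (chr13:59133616-59133675), all on the plus strand.
Ntrk2-202: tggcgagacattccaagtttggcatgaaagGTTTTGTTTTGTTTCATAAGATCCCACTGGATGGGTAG
Ntrk2-205: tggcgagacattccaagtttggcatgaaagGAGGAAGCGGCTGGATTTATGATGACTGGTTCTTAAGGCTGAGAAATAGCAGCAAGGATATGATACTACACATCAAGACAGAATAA
Ntrk2-201: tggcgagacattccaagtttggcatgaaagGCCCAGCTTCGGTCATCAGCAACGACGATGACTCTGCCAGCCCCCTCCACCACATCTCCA
*Ntrk2-204* has the same coding sequence as *Ntrk2-202*, and this T1 pair held 311 ± 20.9 TPM without IL-12, or 81.4 ± 1.09% of the gene (SD, n = 5). The other truncated forms held 15.4 ± 1.50%, almost all of it *Ntrk2-205*, while the full-length *Ntrk2-201* and *Ntrk2-207* together held 1.79 ± 0.162%, or 6.87 ± 0.954 TPM. Some annotated forms, the full-length *Ntrk2-211* and the truncated *Ntrk2-219* among them, were not quantified, and the shares leave them out. By the estimates, which divide reads that the forms share, the quantified TrkB transcripts were almost entirely without the kinase in every group. Their truncated share of the TPM was 96.8 ± 0.587%, 97.2 ± 0.259% and 97.2 ± 0.653% at 0, 30 and 100 ng/ml. By culture it was 96.0 to 97.6% (median 96.7) without IL-12, 96.8 to 97.4% with 30 ng/ml and 96.4 to 97.9% with 100 ng/ml. The difference from unstimulated was 0.445 percentage points at 30 ng/ml (exact permutation p = 0.175) and 0.406 at 100 ng/ml (exact permutation p = 0.302), both with an adjusted p of 0.911. Over estimated counts in place of TPM the difference at 30 ng/ml was 0.306 points with an exact p of 0.00794, unadjusted. At 100 ng/ml it was 0.321 points, with an exact p of 0.0952, also unadjusted.

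Single transcripts of the members were then tested. At 100 ng/ml edgeR called 0 of 17 tested transcripts of members, against 0.559% of all 41466 transcripts, while 6 of the 17 had an unadjusted p under 0.05 (9.87% of all transcripts) and DESeq2 called 3 (3.1% of all transcripts). At 30 ng/ml edgeR called 0, against 0.359%, with 2 at an unadjusted p under 0.05 (9.01% of all) and 1 called by DESeq2 (2.47% of all). Between the concentrations edgeR and DESeq2 called 0, against 0.0217% by edgeR, with 3 at an unadjusted p under 0.05 (5.87% of all), and DESeq2 called 0.581% of all. In the mean of both concentrations edgeR called 0, against 0.784%, with 5 at an unadjusted p under 0.05 (10.2% of all) and 3 called by DESeq2 (3.56% of all). Of the 8 transcripts of *Ntrk2* and *Bdnf* in this fit, the full-length *Ntrk2-201* was furthest down at 100 ng/ml (log2 fold change -0.43, SE 0.11, adjusted p = 0.124), and DESeq2 called it (adjusted p = 0.00599). The T1 transcript *Ntrk2-202* was at -0.10 (SE 0.06) and the other full-length transcript *Ntrk2-207* at -0.04 (SE 0.18). The DESeq2 percentages are over all 41466 transcripts, not all of which DESeq2 gave an adjusted p. It gave one to 26186 at 100 ng/ml, 29400 at 30 ng/ml, 41258 between them and 33404 in the mean of both.

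**Figure D3:**
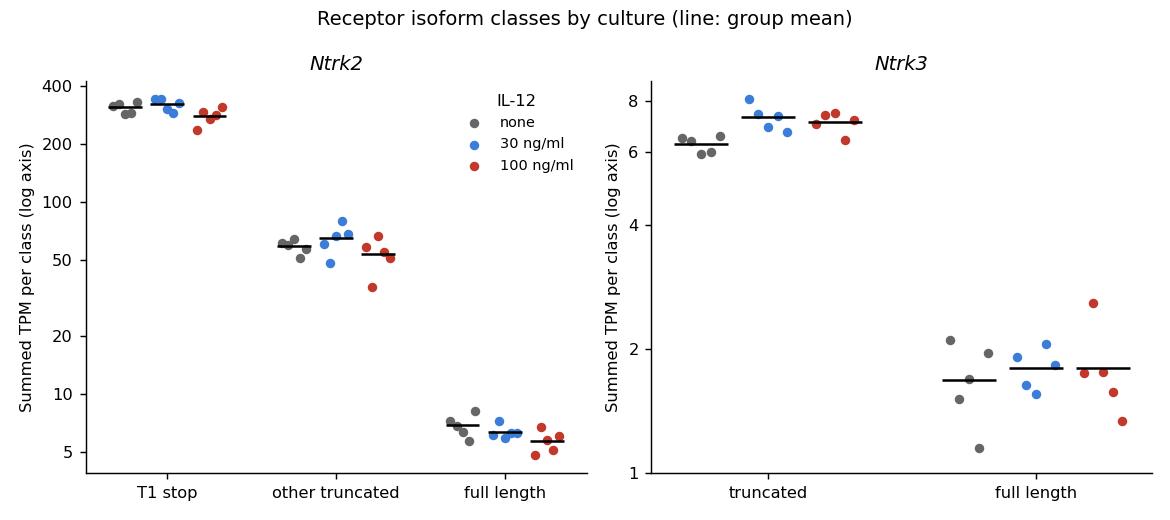
Summed TPM (y axis, log scale) of the isoform classes of *Ntrk2* (left) and *Ntrk3* (right) in each culture (points, coloured by IL-12 concentration) with group means (lines). The T1 class of *Ntrk2* lies at about 311 TPM and its full-length class at 6.87 TPM without IL-12, and the truncated class of *Ntrk3* has means of 6.30, 7.31 and 7.11 TPM and its full-length class of 1.68, 1.80 and 1.80 TPM at 0, 30 and 100 ng/ml.

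*Ntrk3*, on chromosome 7 (chr7:77825707-78387760, minus strand), encodes TrkC. Its cultures were at 37.0, 29.2, 30.3, 29.8 and 32.2 CPM without IL-12, at 38.9, 34.7, 33.5, 36.9 and 35.7 CPM with 30 ng/ml and at 32.5, 40.6, 36.3, 32.9 and 33.8 CPM with 100 ng/ml. All 10 IL-12 cultures lay above 4 of the 5 unstimulated ones, and unstimulated replicate 1, the deepest library, lay among them. For *Ntrk3* the log2 fold change was 0.15 (SE 0.07, adjusted p = 0.202) at 100 ng/ml, 0.18 (SE 0.07, adjusted p = 0.136) at 30 ng/ml and 0.16 (SE 0.06, adjusted p = 0.0955) in the mean of both. Without unstimulated replicate 1 the adjusted p was 0.0354 at 30 ng/ml and 0.0245 in the mean of both, with log2 fold changes of 0.24 and 0.23.

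TrkC forms also part after a shared stretch, here of 1585 coding bases. The last 30 shared bases are in lower case. Capitals show the opening 135 of 254 bases of the truncated end (GRCm39 chr7:77954040-77954174) and the opening 60 of 893 bases of the full-length end, which holds the kinase (chr7:77910103-77910162). Both are on the minus strand.
Ntrk3-202: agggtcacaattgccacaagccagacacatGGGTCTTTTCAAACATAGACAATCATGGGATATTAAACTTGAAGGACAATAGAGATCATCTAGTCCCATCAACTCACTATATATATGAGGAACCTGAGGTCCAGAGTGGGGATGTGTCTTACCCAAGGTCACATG
Ntrk3-201: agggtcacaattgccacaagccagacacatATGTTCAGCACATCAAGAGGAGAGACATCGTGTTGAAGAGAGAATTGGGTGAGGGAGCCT
The truncated *Ntrk3-202* held 70.6 ± 9.14%, 72.1 ± 5.17% and 69.8 ± 8.38% of the gene's TPM at 0, 30 and 100 ng/ml. Full-length transcripts held 18.5 ± 2.55%, 17.7 ± 1.47% and 17.5 ± 3.57%. Some annotated forms, the full-length *Ntrk3-222* and the truncated *Ntrk3-238* among them, were not quantified. Over estimated counts, where the long full-length transcript *Ntrk3-201* of 19703 bases weighs more, the truncated share was 49.99 ± 4.50%, 49.9 ± 2.62% and 51.4 ± 4.41%. The share did not pass the exact permutation test in any pair of groups (smallest p = 0.619, adjusted p = 0.960). By culture *Ntrk3-202* was at 5.95 to 6.58 TPM without IL-12, at 6.74 to 8.11 with 30 ng/ml and at 6.44 to 7.49 with 100 ng/ml, so that the 30 ng/ml group lay wholly above the unstimulated one, as did 2.27% of all transcripts tested. By transcript, the log2 fold change of *Ntrk3-202* was 0.19 (SE 0.06) at both concentrations, with adjusted p-values of 0.236 at 100 and 0.283 at 30 ng/ml by edgeR and of 0.0279 and 0.0456 by DESeq2.

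*Ngfr* (chr11:95459638-95478561, minus strand), the p75 receptor, had 38 to 72 reads per culture. It lay between 1.36 and 2.06 CPM without IL-12 (median 1.83), between 1.32 and 2.03 with 30 ng/ml (median 1.68) and between 1.399 and 1.85 with 100 ng/ml (median 1.66). Its log2 fold change was -0.07 (SE 0.15, adjusted p = 0.801) at 100 ng/ml and -0.04 (SE 0.15, adjusted p = 0.903) at 30 ng/ml, with overlapping groups.

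Other ligands and receptors of these families were taken as a list of 21 genes, of which 16 were tested. In the mean of both concentrations 2 of 16 rose and 0 fell, or 12.5% against 11.9% of all genes (6.71% higher and 5.22% lower), and the median log2 fold change was 0.07 against -0.0023 over all genes. Both were coreceptors of the GDNF family. *Gfra1*, the coreceptor of GDNF, rose from 37.3 ± 3.35 CPM to 49.5 ± 3.32 with 30 ng/ml and 46.1 ± 1.05 with 100 ng/ml (SD, n = 5), a log2 fold change of 0.36 in the mean of both (SE 0.05, adjusted p = 0.000296) that was also called at each concentration. *Gfra2*, the coreceptor of neurturin, rose from 14.4 ± 1.63 to 17.1 ± 1.54 and 17.8 ± 0.786 CPM (log2 fold change 0.27, SE 0.07, adjusted p = 0.012, and 0.0645 under limma). *Gfra4*, the coreceptor of persephin, was called lower at 30 ng/ml (log2 fold change -0.48, SE 0.14, adjusted p = 0.0454), a call not followed through the alternatives. The kinase gene *Ret* did not pass (0.24, SE 0.09, adjusted p = 0.103).

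Proneurotrophin processing was taken as a list of proteases, their inhibitors and carboxypeptidase E, 13 of 17 of them tested. In the mean of both concentrations 1 rose and 1 fell, or 15.4% against 11.9% of all genes (median log2 fold change -0.04). *Mmp3*, a secreted metalloproteinase that can cleave proneurotrophins, rose from 3.79 ± 0.764 CPM to 7.88 ± 1.21 at 30 ng/ml and 7.05 ± 1.67 at 100 ng/ml, with a log2 fold change of 0.98 (SE 0.15, adjusted p = 0.000347). *Pcsk2*, a proprotein convertase of the secretory pathway, fell from 6.56 ± 0.853 to 4.88 ± 0.770 and 5.28 ± 1.07 CPM (log2 fold change -0.37, SE 0.12, adjusted p = 0.0463). The call of *Pcsk2* was lost under 4 of 8 other settings (library size alone, no filter, the replicate block and limma, adjusted p up to 0.0845) and in 13 of 15 fits without a culture, all but those without replicate 3 at 30 ng/ml or replicate 2 at 100 ng/ml (up to 0.138). *Furin*, *Cpe* and *Plat* were tested and did not pass.

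Downstream of the receptors, 5 of 50 tested genes of Trk signalling were called in the mean of both, 1 higher and 4 lower, where 11.9% of all genes were called (median log2 fold change -0.03). The adaptor *Grb2* fell (log2 fold change -0.19, SE 0.04, adjusted p = 0.00794), as did the kinases *Map2k1* (-0.10, SE 0.03, adjusted p = 0.045) and *Rps6ka5* (-0.30, SE 0.06, adjusted p = 0.00511), and the scaffold *Magi2* rose (0.23, SE 0.07, adjusted p = 0.0275). The largest fall in the list, *Pdk1* at -0.77 (SE 0.08, adjusted p = 1.66e-05), is that of pyruvate dehydrogenase kinase, a metabolic enzyme that shares an alias with the Trk pathway kinase encoded by *Pdpk1*. Without it 1 of 49 rose and 3 fell. The call of *Rps6ka5* was lost under limma (adjusted p = 0.191), and that of *Magi2* without unstimulated replicate 3, 4 or 5 (up to 0.0877). That of *Map2k1* was not followed through the alternatives.

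Partners of p75 and sortilin made up a list of 20 tested genes, of which 5 rose and 3 fell, or 40.0% against 11.9% of all genes. The median log2 fold change was 0.02. *Tnfrsf19*, the TROY receptor that can stand in for p75 in the Nogo receptor complex, rose by 0.19 (SE 0.04, adjusted p = 0.012), and its complex partner *Lingo1* fell by 0.26 (SE 0.06, adjusted p = 0.0109). The adaptors and kinases were split, with *Irak1* higher (0.14, SE 0.03, adjusted p = 0.0144) and *Traf6* (-0.20, SE 0.06, adjusted p = 0.0352) and *Prkcz* (-0.30, SE 0.07, adjusted p = 0.00777) lower. *Bex3* and *Smpd2*, linked to death signals of p75, rose by 0.17 and 0.21. The call of *Traf6* was lost under 4 of 8 other settings (library size alone, no filter, the replicate block and limma, adjusted p up to 0.161) and in 9 of 15 fits without a culture (unstimulated replicate 1, 3, 4 or 5, replicate 1, 2, 3 or 4 at 30 ng/ml, or replicate 4 at 100 ng/ml). Limma also lost *Prkcz* (adjusted p = 0.300) and *Smpd2* (0.0656), the latter lost as well without unstimulated replicate 1 or 5 (up to 0.0545). Calls of *Tnfrsf19*, *Irak1* and *Bex3* were not followed through the alternatives.

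Genes known to respond to TrkB were split as well. Of 22 tested, 3 rose and 4 fell in the mean of both, or 31.8% against 11.9% of all genes (median log2 fold change -0.07). *Vgf*, a neuropeptide precursor, rose from 4.17 ± 0.549 to 6.05 ± 0.553 and 6.08 ± 1.079 CPM (log2 fold change 0.54, SE 0.11, adjusted p = 0.00458), and the feedback inhibitors *Spry2* and *Spry4* rose by 0.14 and 0.16. The immediate early genes *Fos* (-0.26, SE 0.05, adjusted p = 0.00378) and *Nr4a1* (-0.26, SE 0.08, adjusted p = 0.0317) fell, as did the phosphatases *Dusp1* (-0.28, SE 0.06, adjusted p = 0.00794) and *Dusp6* (-0.22, SE 0.07, adjusted p = 0.042). The call of *Nr4a1* was lost with no filter, the replicate block and limma (adjusted p up to 0.0663) and without unstimulated replicate 3 or 4 (up to 0.0983). These genes answer to many other signals. Calls of *Spry2*, *Spry4* and *Dusp6* were not followed through the alternatives.

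Of 25 tested regulators of *Bdnf* transcription, 0 rose and 5 fell, where 11.9% of all genes were called (median log2 fold change -0.04). They were the activity-dependent factors *Mef2c* (-0.43, SE 0.08, adjusted p = 0.00299), *Mef2a* (-0.22, SE 0.07, adjusted p = 0.0372) and *Mef2d* (-0.20, SE 0.04, adjusted p = 0.00494), the repressor *Rest* (-0.24, SE 0.04, adjusted p = 0.00189) and its corepressor *Rcor1* (-0.14, SE 0.04, adjusted p = 0.0494). Limma lost *Mef2c* (adjusted p = 0.063) and *Mef2a* (0.083), and *Mef2a* was lost in 9 of 15 fits without a culture (unstimulated replicate 1, 3, 4 or 5, replicate 1, 4 or 5 at 30 ng/ml, or replicate 3 or 4 at 100 ng/ml, adjusted p up to 0.098). The call of *Rcor1* was not followed through the alternatives. *Bdnf* itself was at 0.06 (SE 0.11, adjusted p = 0.770) in the mean of both concentrations. Microglia also express *Mef2c*, and microglial markers moved in the same cultures: 9 of 13 tested were called lower at 30 ng/ml and 0 of 13 at 100 ng/ml, with summed TPM of 8976 to 12643, 7161 to 8959 and 8569 to 11255 at 0, 30 and 100 ng/ml. Of all genes, 3.71% were called lower at 30 ng/ml and 3.93% at 100 ng/ml. The part of microglia in the falls of these regulators was not tested.

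**Figure D4:**
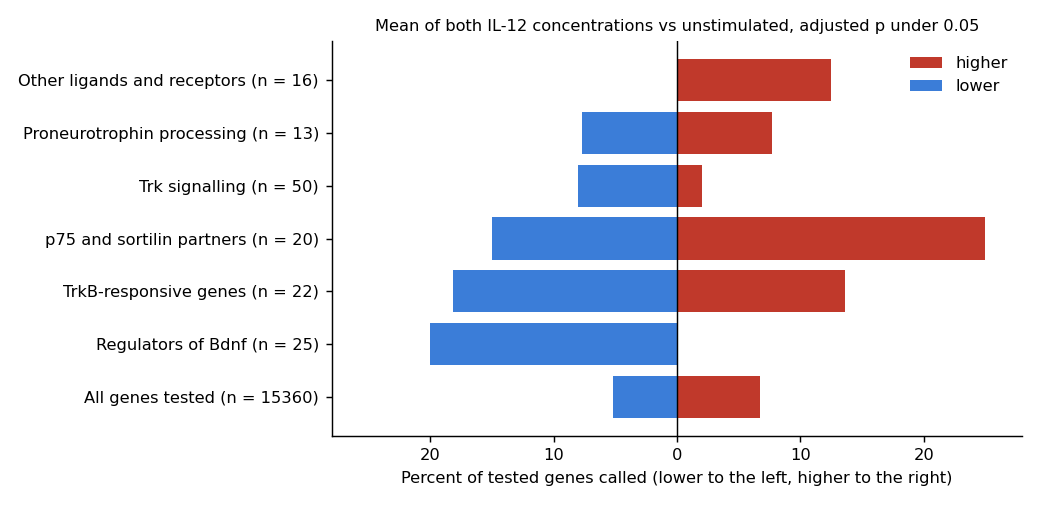
Percent of tested genes called in each pathway list (bars to the right higher, to the left lower) in the mean of both IL-12 concentrations against unstimulated, beside all 15360 genes tested. The p75 and sortilin partners (5 higher and 3 lower of 20) have the longest bar to the right, and the regulators of *Bdnf* (0 higher and 5 lower of 25) the longest to the left. The Trk signalling bar to the left includes *Pdk1*.

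By concentration, 9.77% of all genes were called at 100 ng/ml (5.83% higher and 3.93% lower) and 7.87% at 30 ng/ml (4.16% higher and 3.71% lower). At 100 ng/ml the counts higher and lower were 0 and 6 of 50 for Trk signalling, 1 and 4 of 20 for the p75 and sortilin partners, 1 and 3 of 22 for the TrkB-responsive genes and 0 and 3 of 25 for the regulators of *Bdnf*. At 30 ng/ml they were 2 and 3, 3 and 0, 3 and 0, and 0 and 3 for the same lists. Without *Pdk1* the counts for Trk signalling were 0 and 5 of 49 at 100 ng/ml and 2 and 2 of 49 at 30 ng/ml. Among the p75 and sortilin partners, *Ntsr2*, a neurotensin receptor, was called lower at 100 ng/ml. The genes of these lists called lower at 100 ng/ml but not at 30 ng/ml were not tested for a difference beyond the comparison of the concentrations, in which edgeR called 0 genes of the 6 lists.

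Other cell markers were called too, against 6.71% of all genes higher and 5.22% lower in the mean of both concentrations. Of 11 astrocyte markers, 5 rose and 1 fell in the mean of both concentrations, *Gfap* from 3640 ± 266 to 4226 ± 361 and 4216 ± 383 CPM among those that rose (a call lost under the replicate block and without unstimulated replicate 1, 4 or 5 or replicate 3 at 30 ng/ml, adjusted p up to 0.0882). Of 18 tested neuronal markers, 1 rose (*Tubb3*, log2 fold change 0.46) and 4 fell, *Calb1* the furthest (-0.54). Fibroblast and meningeal markers had 1 higher and 1 lower of 9, endothelial markers 0 higher and 2 lower of 6, and T and NK cell markers 0 of 2, with *Ncr1* at 0 in every culture. Counts from lists this short cannot be set apart from the background. The part of cell composition in the values of the members was not tested.

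As a description of how the members vary over the 15 cultures, the 3 genes with the most similar log2 CPM were sought for each (Pearson r, which the groups and the shared libraries both enter). For *Sort1* it was *Ube2h* (r = 0.97), followed by *Ephb1* and *Gnb4*, and for *Ntrk2* it was *Ednrb* (r = 0.96), followed by *Igsf11* and *Mob3b*. *Ntrk3* was closest to *Piezo2* (r = 0.92), *Atf7ip* and *Adal*, and *Bdnf* to *Pdgfc* (r = 0.90), *Actg2* and *Ptgs2*. *Gdnf* was closest to *Lrig1* (r = 0.89), *Dnajc14* and *Htr2a*, *Ntf3* to the non-coding *Pantr1* (r = 0.86), *Cops5* and *Hes1*, and *Ngfr* to *Zdhhc5* (r = 0.79), *Zfp189* and *Tram2*. Among the members themselves the closest pair was *Ntrk2* and *Sort1* (r = 0.77), while *Gdnf* and *Ntrk3* were at 0.58 and *Bdnf* and its receptor gene *Ntrk2* at -0.50.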

How the data were processed

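Poly(A) RNA of 15 cultures was sequenced as stranded single-end libraries. Per the file headers, the deposited tables give each transcript's length, effective length, estimated count and TPM. The program that made them is not given in the sources used here, where the methods describe reads counted per gene. Estimated counts and TPM were summed by gene with GENCODE release M39 (GRCm39), which matched 120537 of 121798 transcripts (99.0%), and the counts were rounded. Reads of overlapping genes are divided by that program. Genes reaching 1 CPM in 2 or more cultures were scaled with TMM (factors 0.981 to 1.02) and tested with edgeR 4.0.16 (quasi-likelihood test, 1 fit of 3 groups, R 4.3.3), with Benjamini-Hochberg adjustment over all 15360 genes, or 41466 transcripts. CPM are on the TMM scale, and TPM served for levels and isoform shares. Shares and *Ntf5* were compared by exact permutation of cultures (SciPy 1.17.1). The steps were tested on simulated data.

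Alternatives were DESeq2 1.42.0, the likelihood-ratio test, RLE factors, library size alone, no filter, at least 10 counts in every culture, only the groups compared, the replicate number as a block, limma 3.58.1 on log2(TPM + 0.5) and each culture left out. No cultures of a group agreed within sampling noise (chi-square per degree of freedom 5.27 to 31.2 over 30 pairs). The members, lists and tests were chosen with earlier results of these data known. By rule, genes named from a list are those called in the mean of both concentrations, up to the 4 largest changes per list. *Ret*, *Gfra4*, *Furin*, *Cpe*, *Plat*, *Map2k1*, *Tnfrsf19*, *Irak1*, *Bex3*, *Ntsr2*, *Spry2*, *Spry4*, *Dusp6* and *Rcor1* were named after their values were seen, as were single markers outside the rule. Tests of isoform classes other than the truncated shares and *Bdnf-205*, and the list without *Pdk1*, were also added after seeing the data. Sequences are coding sequence of GENCODE M39. Some genes of the lists are not reported here.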

Additional observations from a re-analysis of the deposited data

Results flagged for a closer look

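Of 51 sets of 5 cultures tested (each member's CPM and each isoform share in each group), 2 had a culture set apart by more than Dixon's 95% limit (a ratio of 0.71), and chance gives about 1 in 20. *Gdnf* in replicate 1 at 100 ng/ml was lowest at 1.72 CPM, with the other 4 at 2.27 to 2.46. The truncated share of *Ntrk2* in replicate 5 at 30 ng/ml was lowest at 96.8%, with the other 4 at 97.3 to 97.4%.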

How the results depend on the processing

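*Sort1* kept its direction and its call at 100 ng/ml and in the mean of both concentrations under every alternative run, and the call of *Gdnf* did not. Members called at 100 ng/ml were 2 (*Sort1* and *Gdnf*) under DESeq2, the likelihood-ratio test and at least 10 counts in every culture. These settings called 1964 of 15360, 1857 of 15360 and 1498 of 15503 genes, against 1500 of 15360 in the main fit. In the mean of both they were 1 (*Sort1*) with no filter, with the replicate block and with limma on TPM, where *Gdnf* had adjusted p-values of 0.0647, 0.0799 and 0.0811. Same-numbered cultures were not clearly more alike than others. Of 15 same-numbered pairs, 4 correlated above 0.1 (range -0.183 to 0.264), against 10 of 60 other pairs (-0.239 to 0.311). The median r was -0.0188 and 0.00244. No culture correlated best with its own number in both other groups at once, a demand too strict to exclude pairing. The replicate block gave 1169, 1081, 69 and 1601 genes called at 100 ng/ml, at 30 ng/ml, between them and in the mean of both, against 1500, 1209, 89 and 1832 without it. All genes called at 100 ng/ml were 946 with only the groups compared and 826 with limma. Between the concentrations they were 247 with DESeq2, 253 with the likelihood-ratio test and 51 with limma, and in the mean of both 1211 with limma. Limma reversed log2 differences near 0: *Bdnf* at 30 ng/ml to 0.00923, and between the concentrations *Ntf3* to -0.0148 and *Ntrk3* to 0.0118. DESeq2 called 1 transcript of *Ntrk2* and *Bdnf* (*Ntrk2-201*) at 100 ng/ml and 1 in the mean of both. Over expected counts the truncated share of *Ntrk2* differed by 0.306 points at 30 ng/ml (exact permutation p = 0.00794) and by 0.321 at 100 ng/ml (p = 0.0952). Between the concentrations it differed by 0.0153. That of *Ntrk3* differed by 1.41 at 100 ng/ml, -0.0897 at 30 ng/ml and 1.50 between them. The causes were not tested. Of 320 results for genes that the rule named (up to the 4 largest changes per list), 293 kept their call under these alternatives and 27 kept direction only. With a culture left out, 507 kept their call and 93 direction only. Calls of *Map2k1*, *Tnfrsf19*, *Irak1*, *Bex3*, *Spry2*, *Spry4*, *Dusp6*, *Rcor1*, *Gfra4* and *Ntsr2* were not followed through either set. Those of single markers outside the rule were not followed either.

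Leaving out each culture in turn, members called ranged from 1 to 2 at 100 ng/ml, 0 to 1 at 30 ng/ml and 1 to 2 in the mean of both, and transcripts of *Ntrk2* and *Bdnf* from 0 to 1 at 100 ng/ml. All genes called ranged from 940 (without unstimulated replicate 5) to 2932 (without replicate 2 at 100 ng/ml) at 100 ng/ml, 673 (without unstimulated replicate 3) to 1668 at 30 ng/ml, 38 (without replicate 5 at 30 ng/ml) to 147 between the concentrations and 1203 to 2837 in the mean of both. Log2 fold changes that crossed 0 ranged for *Bdnf* from -0.100 to 0.0555 at 30 ng/ml and -0.0125 to 0.144 in the mean of both, and for *Ntf3* from -0.136 to 0.0452 at 100 ng/ml, -0.131 to 0.011 at 30 ng/ml, -0.0535 to 0.0959 between them and -0.114 to 0.0281 in the mean of both. For *Ngfr* they ranged from -0.120 to 0.0358 at 30 ng/ml, -0.108 to 0.0477 between the concentrations and -0.133 to 0.00637 in the mean of both, and for *Ntrk3* between the concentrations from -0.0867 to 0.00016. Truncated shares of *Ntrk2* differed by 0.247 to 0.638 points at 30 ng/ml (0.638, exact p = 0.0317, without unstimulated replicate 3) and -0.215 to 0.169 between the concentrations. Those of *Ntrk3* differed by -3.75 to 1.76 at 100 ng/ml and -1.48 to 4.04 at 30 ng/ml, and the share of *Bdnf-205* by -2.85 to 2.71 at 100 ng/ml. Few reads limit *Ntf5*, *Ngfr*, *Gdnf* and *Ntf3*.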
